A study of Mus musculus with 2 samples.

Results

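The genes described here encode the receptors by which neurons answer glutamate, GABA and glycine. They were chosen by symbol: subunits of the AMPA, NMDA, kainate and delta receptors, metabotropic glutamate receptors, GABA-A and GABA-B receptors and glycine receptors, with at least 30 UMIs (unique molecular identifiers, each standing for 1 captured RNA molecule) over all cells. Of 24905 genes in the table, 45 matched as subunits and 42 reached the minimum. They were 4 AMPA, 5 NMDA, 5 kainate, 2 delta, 7 metabotropic glutamate, 13 GABA-A, 2 GABA-B and 4 glycine receptor genes. Grin2c (5 UMIs), Grin3b (9) and Gabrd (2) fell under the minimum. Gabre (31) and Glra3 (34) lay just above it. Grin1os, antisense to Grin1, shares the letters but encodes no subunit and was left out.

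The study profiled hypothalamic cells of newborn CD-1 mice, an outbred stock, by Drop-seq, a droplet method whose beads tag the 3′ ends of RNA with a code for the cell. Both groups carried Sim1-Cre and the Ai14 reporter, which makes the red protein tdTomato in cells that expressed Cre, or whose precursors did, and cells were sorted for tdTomato. The control group was Sim1-Cre;tdTomato+/-, and the other group (Sim1 heterozygous) was Sim1-Cre;tdTomato+/-;Sim1+/-, so it also lacked 1 copy of Sim1. SIM1 is a transcription factor without which the paraventricular nucleus does not form. Each group was 1 library from 6 pooled pups of postnatal day 1 to 4. The 2 libraries, not the 2 genotypes, are therefore compared, with no replicate check and no test, and the mix of ages in each pool and the genotype cannot be told apart.

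AMPA receptors carry the fast excitatory current, NMDA receptors a slower current that lets calcium in, and kainate receptors a smaller current. Metabotropic glutamate receptors act through G proteins. GABA-A and glycine receptors are chloride channels built of 5 subunits, and GABA-B receptors signal through G proteins. Which subunits a neuron makes sets how fast its channels close, whether AMPA receptors pass calcium (Gria2 blocks it) and how GABA-A receptors answer drugs, and the mix shifts as neurons mature after birth. Paraventricular neurons that make vasopressin (Avp), oxytocin (Oxt), corticotropin-releasing hormone (Crh) or thyrotropin-releasing hormone (Trh) are driven and held back through these receptors.

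Levels are UMIs summed over cells per 1000000 UMIs of those cells (CPM). A Drop-seq transcript is counted once at its 3′ end, so levels were not divided by length, although genes can still differ in capture. Square brackets give exact intervals at 95% that cover counting error only. Ratios are log2 of the Sim1 heterozygous level over the control level with 1 UMI added to each sum. The control library held 2748 neurons with 6445858 UMIs (median 1791.5 a cell) and the Sim1 heterozygous library 2363 with 5311877 (median 1641). No barcode was shared. Sim1 itself stood at 113.6 CPM in control and 91.7 CPM in Sim1 heterozygous neurons, a log2 ratio of -0.31 [-0.48 to -0.14], and since the labels do not name the deleted part, a 3′ tag may not check the label. Markers of other cells were low in neurons of both libraries. The 7 astrocyte or radial glia genes summed to 29.3 and 19.6 CPM, with Gfap at 0 in the Sim1 heterozygous library. In Foxb1 neurons they had 75.1 and 10.5 CPM. A cell counted as a neuron only with more UMIs of neuron markers than of these 7 genes, so their low sum is no check of purity. The 4 microglia genes had 1.4 and 1.13 CPM (Csf1r at 0 in control and P2ry12 at 0 in the Sim1 heterozygous library). The 5 oligodendrocyte lineage genes had 58.95 and 58.9 CPM. Pituitary genes, led by Gh, differed, with 346 CPM in control and 0.188 CPM in Sim1 heterozygous neurons, and their part in the results was not tested. Processed pseudogenes took 4.1% and 2.87% of the UMIs.

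Neurons were grouped by a marker gate: at least 10 UMIs of Avp or Oxt, or at least 2 of Crh, Trh, Foxb1, Neurod6 or Tcf7l2. The cells of control and Sim1 heterozygous libraries numbered 93 and 23 with Avp, 28 and 38 with Crh, 66 and 44 with Trh, 654 and 862 with Foxb1, 50 and 29 with Neurod6 and 112 and 19 with Tcf7l2. The Oxt group had 18 control cells and only 2 Sim1 heterozygous cells, so it is described in control only. In control, 69 cells passed the Oxt gate, and those with more Avp than Oxt went to the Avp group. The Avp group thus includes cells with both hormones, and held Oxt at 5779 CPM in control and 2996 CPM in Sim1 heterozygous. Neurons past no gate (ungated) numbered 1702 and 1337, and 25 and 9 cells past several gates were left out. Otp, a factor of paraventricular hormone neurons, was between 463 and 775 CPM in the Avp, Crh and Trh groups of both libraries. It was 17.2 and 16.9 CPM in Foxb1 neurons and 27.8 and 0 CPM in Tcf7l2 neurons. The last group also held only 2 Sim1 UMIs in control and 0 in Sim1 heterozygous, and it is called by its gate. The Foxb1 gate (Foxb1 marks the mammillary region) took 23.8% of control and 36.5% of Sim1 heterozygous neurons. This share moves with every sum over all neurons below.

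AMPA receptors took more UMIs than any other family, 36.4% of all receptor UMIs in control neurons and 40.1% in Sim1 heterozygous neurons. Gria2, the subunit that makes the channel impermeable to calcium, was the highest of the 42 genes in both libraries, at 1282 CPM [1255 to 1310] in control and 1946 CPM [1909 to 1984] in Sim1 heterozygous neurons. Its share of AMPA subunit UMIs differed widely between neuron groups. In Avp neurons Gria2 was 51.3% [44 to 58.5] of 193 AMPA UMIs in control and 65.5% [51.9 to 77.5] of 58 in Sim1 heterozygous. In Oxt neurons of the control it was 52.4% [39.4 to 65.1] of 63. Crh neurons (69.4% and 68.6%), Trh neurons (65.2% and 69.8%), Neurod6 neurons (70.4% and 71.1%) and Tcf7l2 neurons (76.7% and 75.6%) lay between. Foxb1 neurons were highest, at 87.5% [86.4 to 88.6] of 3423 UMIs and 88.8% [88 to 89.6] of 6581. The interval of Foxb1 neurons overlapped that of no other gated group in either library. Those of Crh, Trh and Neurod6 neurons overlapped each other in both.

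**Figure D1:**
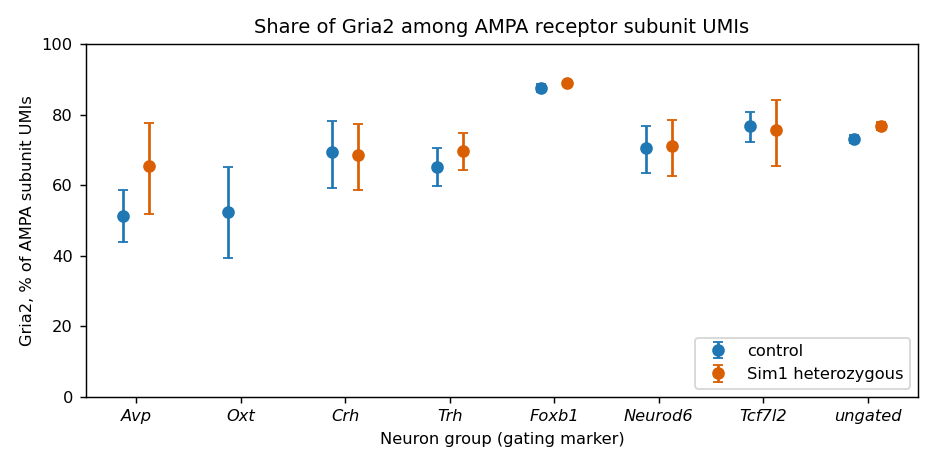
Gria2 as a percentage of AMPA subunit UMIs (y axis) in each neuron group (x axis), with exact 95% intervals that cover counting error only. Avp neurons of the control sit at 51.3% and Foxb1 neurons at 87.5% and 88.8%; the Oxt group of the Sim1 heterozygous library, with 4 AMPA UMIs, is not drawn.

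The level of Gria2 also differed between groups. It was 392 CPM in control and 587 CPM in Sim1 heterozygous Avp neurons, against 1318 and 1963 CPM in the other neurons of the same library. The log2 difference of Avp neurons from other neurons was -1.74 [-2.05 to -1.47] in control and -1.70 [-2.24 to -1.28] in Sim1 heterozygous. Glia-like cells had 264 CPM (13 UMIs) and 653 CPM (34 UMIs), the latter above the level of Sim1 heterozygous Avp neurons, and the part of free RNA in the Avp values was not tested. In Foxb1 neurons Gria2 reached 2064 and 2671 CPM. Hormone RNA alone takes part of an Avp neuron's UMIs, 13.7% and 12% for the 7 gating genes together, and the share above does not depend on it. Genes that mark neurons, 8 summed, were also lower in Avp neurons, at 7215 and 7690 CPM against 14025 and 12224 CPM in all neurons. The part of this general difference in the low levels of receptor genes in Avp neurons, here and below, was not tested.

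The other AMPA subunits filled the rest in a way that also differed by group. Gria1, an AMPA subunit tied to synaptic plasticity, held 30.1% [23.7 to 37.1] of AMPA UMIs in control Avp neurons and 6.9% [1.91 to 16.7] in Sim1 heterozygous Avp neurons, from 58 and 4 UMIs. Its level there was 229 and 61.8 CPM, a log2 ratio of -1.60 [-3.82 to -0.46]. In all neurons Gria1 was 181.5 and 182.05 CPM. Crh neurons had 163 and 76.4 CPM (-0.98 [-2.60 to 0.25]) and Trh neurons 175 and 119 CPM (-0.52 [-1.40 to 0.27]), both with intervals that hold 0. Among the gated groups without Oxt and the ungated neurons, Gria1 was lower in 5 of 7 and higher in 2. With these weighted equally its ratio was -0.43, so the equal level over all neurons depends on the weighting. Gria3 was high in Trh neurons, with 223 CPM in control and 199 CPM in Sim1 heterozygous against 75.2 and 74.8 CPM in the other neurons. This was a log2 difference of 1.60 [1.10 to 2.01] and 1.45 [0.87 to 1.91]. In control Oxt neurons it was 258 CPM [145 to 426] from 15 UMIs. Gria4 was 122 and 144 CPM in all neurons, and in Avp neurons 39.6 CPM from 10 UMIs and 154 CPM from 10 UMIs.

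NMDA receptors need Grin1, the subunit common to all of them, joined by a GluN2 or GluN3 subunit. Grin2b, the GluN2 subunit of the newborn brain, led the GluN2 genes with 82.3% [79.9 to 84.5] of their UMIs in control and 85.8% [83.5 to 87.8] in Sim1 heterozygous neurons. Grin2a, which rises as synapses mature, had 5.66% [4.38 to 7.18] and 8.14% [6.57 to 9.94]. Grin2d, an early subunit with slow closing, had 12% [10.2 to 14.1] and 6.08% [4.72 to 7.68]. The last interval lies wholly below that of control. Grin2d was also scarce in Foxb1 neurons, at 8.96 and 6.85 CPM against 24.2 and 16 CPM in the other neurons of the same library. Grin3a, whose receptors pass little calcium, had the most NMDA UMIs in Crh neurons, with 51.4% [34.4 to 68.1] of 37 UMIs and 54.8% [36 to 72.7] of 31. It had the most in Avp neurons too, with 41.9% of 74 and 45% of 20. In both groups and both libraries its interval overlapped that of Grin2b, which held 27% and 22.6% in Crh neurons and 31.1% and 35% in Avp neurons. The lead of Grin3a was not particular to these groups. In Neurod6 neurons it equalled Grin2b in control, at 38.9% of 54, and led in Sim1 heterozygous, with 62.9% of 35. Grin3a also led in control Tcf7l2 neurons (37.8% of 135) and Sim1 heterozygous ungated neurons (36.9% of 1075), while Grin2b led in the other library of each. In Foxb1 neurons Grin3a held 19.2% [15.6 to 23.2] and 17.7% [15.2 to 20.4], and Grin2b led with 58.6% and 53.2%. Grin3a had no UMI in 18 control Oxt neurons, where 19 NMDA UMIs were counted, and a count of 0 allows up to 3 UMIs. All 69 control cells past the Oxt gate, which include those placed with Avp neurons for their higher Avp count or left out, held 21 UMIs of Grin3a (83.9 CPM).

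Among kainate receptors, Grik5, which needs a partner to form a channel, and Grik1 took most UMIs. Grik5 held 44.9% [42.6 to 47.2] of kainate UMIs in control and 38.1% [35.8 to 40.4] in Sim1 heterozygous neurons. Grik1 was 91.1 and 116 CPM in all neurons, and reached 192 CPM in control Crh neurons, from 20 UMIs, and 54.6 CPM in Sim1 heterozygous Crh neurons, from 5. Grik2 was 51.2 and 70.2 CPM in all neurons and 11.9 and 30.9 CPM in Avp neurons, from 3 and 2 UMIs. Grik3 and Grik4 stayed under 15 CPM in all neurons of either library. Grid1, a delta receptor, which organises synapses, was 24.7 and 32.6 CPM.

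Grm5, the excitatory group I metabotropic receptor, led its family with 49.2% [47.1 to 51.2] of metabotropic UMIs in control and 44.1% [42.1 to 46.1] in Sim1 heterozygous neurons. Tcf7l2 neurons leaned on it most among the groups with over 30 such UMIs in both libraries, at 63.5% [55.5 to 71] and 61.8% [43.6 to 77.8]. In Avp neurons Grm5 stood at 27.7 CPM in control (7 UMIs) and 61.8 CPM in Sim1 heterozygous (4 UMIs). The other neurons had 177 and 195 CPM, and the log2 differences were -2.49 [-4.00 to -1.63] and -1.34 [-3.54 to -0.30]. Both levels rest on few UMIs.

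Foxb1 neurons had a metabotropic mix of their own. Grm2 and Grm4, both receptors that lower transmitter release, were higher there than in the other neurons of the same library. Grm2 was 26.9 against 8.41 CPM in control and 42.5 against 11.5 CPM in Sim1 heterozygous, log2 differences of 1.68 [1.01 to 2.34] and 1.86 [1.31 to 2.48]. Grm4 was 57.9 against 19.2 CPM and 61.2 against 24.7 CPM, log2 differences of 1.59 [1.15 to 2.03] and 1.30 [0.90 to 1.74]. Grm8, another receptor of the Grm4 class, went the other way, with 11 against 37 CPM and 14.6 against 38.4 CPM. Grm7, also of that class, held 16.5% and 15.7% of metabotropic UMIs in Foxb1 neurons. Weighting each Foxb1 cell equally took the Grm2 difference in the Sim1 heterozygous library from 1.86 to 1.04.

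GABA-A receptors were second to AMPA receptors, with 32.1% of receptor UMIs in control and 29.7% in Sim1 heterozygous neurons. The alpha subunits set how fast the channel closes. Gabra5, Gabra3 and Gabra2, the alpha subunits typical of the immature brain, each took over 25% of alpha UMIs in both libraries.

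The groups weighted these genes differently. In control Avp neurons Gabra2 led with 41.6% [32.9 to 50.8] of 125 alpha UMIs, and in Sim1 heterozygous Avp neurons it had 17% [7.65 to 30.8] of 47. Those intervals do not overlap. Gabra3 was low in both, at 35.6 CPM (9 UMIs) and 92.6 CPM (6 UMIs), against 228 and 282 CPM in the other neurons. In the 18 Oxt neurons of the control, Gabra3 was 241 CPM from 14 UMIs. In all 69 control cells past the Oxt gate it was 91.9 CPM [58.2 to 138] from 23 UMIs, and in all past the Avp gate, which share the cells past both, 59.2 CPM [35.1 to 93.6] from 18. Gabra5 reached 49.6% [40.5 to 58.8] of 123 alpha UMIs in control Neurod6 neurons, the highest share of it in any group, and 29.4% [20.8 to 39.3] of 102 in Sim1 heterozygous. Gabra4 took 16.8% in control Avp neurons and 4.26% of the 47 UMIs in Sim1 heterozygous.

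Of the other GABA-A subunits, Gabrb1 took 52.8% [50.7 to 55] of beta UMIs in control and 50.3% [48.1 to 52.4] in Sim1 heterozygous neurons. Gabrg3, a gamma subunit, held 30.4% [19.9 to 42.7] and 27.3% [17 to 39.6] of gamma UMIs in Trh neurons. In Avp neurons it held 1.75% [0.213 to 6.19] of 114 gamma UMIs in control and had no UMI among 43 in Sim1 heterozygous. The Avp and Trh intervals did not overlap in either library. Neurod6 neurons had 24.4% [12.4 to 40.3] and 20.5% [9.80 to 35.3], and Crh neurons 22.6% [12.3 to 36.2] and 10.7% [4.72 to 19.9]. The intervals of both overlapped those of Trh neurons. In Foxb1 neurons Gabrg3 was 22 and 17.4 CPM against 59.7 and 66.6 CPM in the other neurons, log2 differences of -1.40 [-2.01 to -0.91] and -1.91 [-2.48 to -1.43]. Gabrq, of the theta subunit, was 10.2 and 11.5 CPM in all neurons, and Gabre, of the epsilon subunit, 2.48 and 2.64 CPM.

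Gabbr1, the GABA-B subunit that binds GABA, was 243 and 277 CPM, and Gabbr2, which couples to the G protein, 122 and 162 CPM. The receptor needs both. In Avp neurons Gabbr2 had 9 and 3 UMIs, 35.6 and 46.3 CPM, where Gabbr1 had 45 and 18 UMIs.

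Glycine receptors were rare, with 1.58% and 1.67% of receptor UMIs. Glra2, the alpha subunit of the fetal receptor, held 77.4% [72.1 to 82.1] of alpha UMIs in control and 72.3% [66 to 78.1] in Sim1 heterozygous neurons. In control Tcf7l2 neurons all 25 glycine alpha UMIs were of Glra2, at 77.2 CPM, and in Sim1 heterozygous 6 of 7. Glra1, the adult alpha subunit, was 7.6 and 8.1 CPM in all neurons. In Foxb1 neurons it was at 2.07 CPM (3 UMIs) and 4.11 CPM (9 UMIs) against 9.21 and 10.9 CPM in the other neurons. Glra2 was also lower there, with 17.9 against 38.6 CPM and 13.7 against 42.3 CPM.

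The balance between receptor classes followed the neuron group as well. GABA and glycine receptor genes together took 51.8% of receptor UMIs in control and 54.4% in Sim1 heterozygous Avp neurons, 50% in control Oxt neurons, and 48.7% and 55.5% in Crh neurons. They took 43.6% and 45.5% in Trh, 42.9% and 49.3% in Neurod6 and 41.6% and 45.9% in Tcf7l2 neurons. Foxb1 neurons had the lowest shares, 35% and 34%. Summed over all 42 genes, the level ran from 2808 and 3521 CPM in Avp neurons to 5085 and 6408 CPM in Foxb1 neurons. Glia-like cells had 1973 CPM from 97 UMIs in control and 3111 CPM from 162 in Sim1 heterozygous, at median depths of 1260 and 879 UMIs.

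Over the 6 groups with enough UMIs, 114 pairs of a receptor gene and a group had at least 10 UMIs expected in each library. Of these, 3 were at least 2-fold higher in the group than in the other neurons in both libraries, against 0.674% of all gene and group pairs, and 8 were at least 2-fold lower, against 1.77%. The higher pairs were Gria3 in Trh neurons (1 of 21 genes, background 0.27%) and Grm2 and Grm4 in Foxb1 neurons (2 of 39, background 1.0%). The lower pairs were Gria2, Gabra3 and Grm5 in Avp neurons (3 of 11, background 6.56%) and Gabrg3, Glra1, Glra2, Grin2d and Grm8 in Foxb1 neurons (5 of 39, background 1.63%). In Crh neurons 0 of 15 genes passed in either direction, where 0.0985% of genes were higher and 1.33% lower. The same held for 0 of 17 in Neurod6 neurons (background 0.267% and 1.2%) and 0 of 11 in Tcf7l2 neurons (0.267% and 1.73%). No receptor gene passed as higher in Avp neurons (background 1.03%) or as lower in Trh neurons (1.05%).

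**Figure D2:**
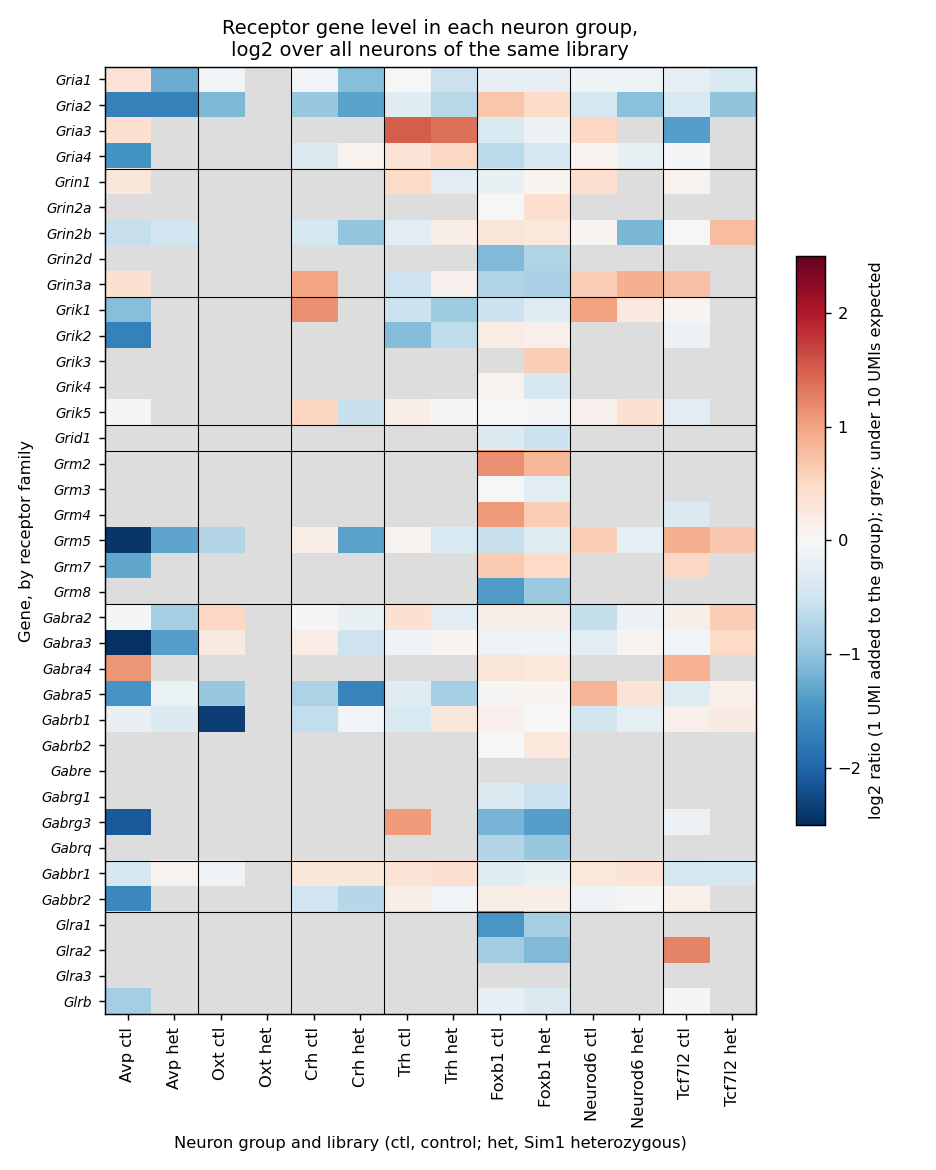
Level of 37 receptor genes (rows, ordered by family) in each neuron group and library (columns) as log2 over all neurons of the same library, with 1 UMI added to the group. Red is higher and blue lower; Gria2 and Grm5 are blue in both Avp columns, Grm2 and Grm4 red in both Foxb1 columns, and grey marks fewer than 10 UMIs expected.

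Between the libraries, 10 of the 42 genes were at least 1.5-fold higher in Sim1 heterozygous neurons, where 8.01% of 14603 genes with at least 30 UMIs were, and 2 were at least 1.5-fold lower, where 9.31% of genes were. Among protein-coding genes alone the backgrounds were 8.1% and 3.1%. The median log2 ratio of the 42 was 0.26 that of all genes 0.04 and that of protein-coding genes, which all 42 are, 0.08. Above 0 lay 34 of the 42, 8045 of the 14603 genes and 7003 of the 11449 protein-coding genes. Each family's sum had a positive ratio. That of the delta receptors was 0.19 [-0.05 to 0.44], an interval that holds 0, and that of AMPA receptors 0.50 [0.46 to 0.53]. NMDA stood at 0.32 [0.23 to 0.40], kainate at 0.26 [0.16 to 0.36], metabotropic at 0.33 [0.25 to 0.41], GABA-A at 0.24 [0.20 to 0.29], GABA-B at 0.27 [0.18 to 0.35] and glycine receptors at 0.44 [0.25 to 0.62]. The families' order changed with the gated groups and the ungated rest given equal weight: AMPA then had 0.15, NMDA 0.11, GABA-A 0.37 and GABA-B 0.48, and the kainate and metabotropic ratios were -0.07 and -0.03. With the Oxt group left out of that weighting, AMPA had 0.21, NMDA 0.30, GABA-A 0.32, kainate 0.08 and metabotropic receptors 0.04.

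The higher genes came from 6 families. Glrb, the beta subunit that ties glycine receptors to the synapse, was 28.5 CPM [24.6 to 33] in control and 55.9 CPM [49.7 to 62.6] in Sim1 heterozygous, a log2 ratio of 0.97 [0.70 to 1.24]. The intervals did not overlap. Gria2 had 0.60 [0.56 to 0.64], and with equal weight for the groups without Oxt it had 0.27. Grm2, at 12.6 and 24.3 CPM, had 0.94 [0.54 to 1.37]. In Foxb1 neurons, whose share differed between the libraries, Grm2 was higher than in other neurons. With those equal weights Grm2 had 0.93. In that weighting Neurod6 neurons, with 0 control and 3 Sim1 heterozygous UMIs of Grm2, count as much as any other group. The 0.93 thus rests in part on few UMIs. Within Foxb1 neurons Grm2 had 0.64 [0.11 to 1.24] and within ungated neurons 0.35 [-0.42 to 1.10]. Grin2a, at 9.77 and 16.4 CPM, had 0.74 [0.26 to 1.24], and Gabrb2, at 13.2 and 23 CPM, had 0.80 [0.39 to 1.22].

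The weighting mattered for some of these. With equal weights for all gated groups and the ungated rest, 6 of the 12 genes past 1.5-fold were still past it. With equal weights without Oxt, 7 of the 12 were, and Gria2, Gabrb2, Glra3 and Grm3 were among those that were not. Gabrb2 then had -0.11, and Glra3 -0.69 from few UMIs. The kainate subunits Grik3 (32 and 49 UMIs, 0.88 [0.22 to 1.58]) and Grik4 (46 and 64 UMIs, 0.75 [0.19 to 1.33]) and the glycine subunit Glra3 (15 and 19 UMIs, 0.60 [-0.43 to 1.70]) were the scarcest of the 10, and the interval of Glra3 holds 0. Grin2d went from 20.8 CPM [17.4 to 24.6] to 12.2 CPM [9.44 to 15.6], a ratio of -0.75 [-1.21 to -0.33]. Grm3, a metabotropic receptor also known from astrocytes, went from 16.8 to 10.4 CPM, a ratio of -0.68 [-1.19 to -0.21]. Astrocyte or radial glia markers moved the same way, from 29.3 to 19.6 CPM. In Foxb1 neurons Grm3 was 15.8 and 8.23 CPM (23 and 18 UMIs) and those markers 75.1 and 10.5 CPM (109 and 23 UMIs), and their part in the Grm3 value was not tested.

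**Figure D3:**
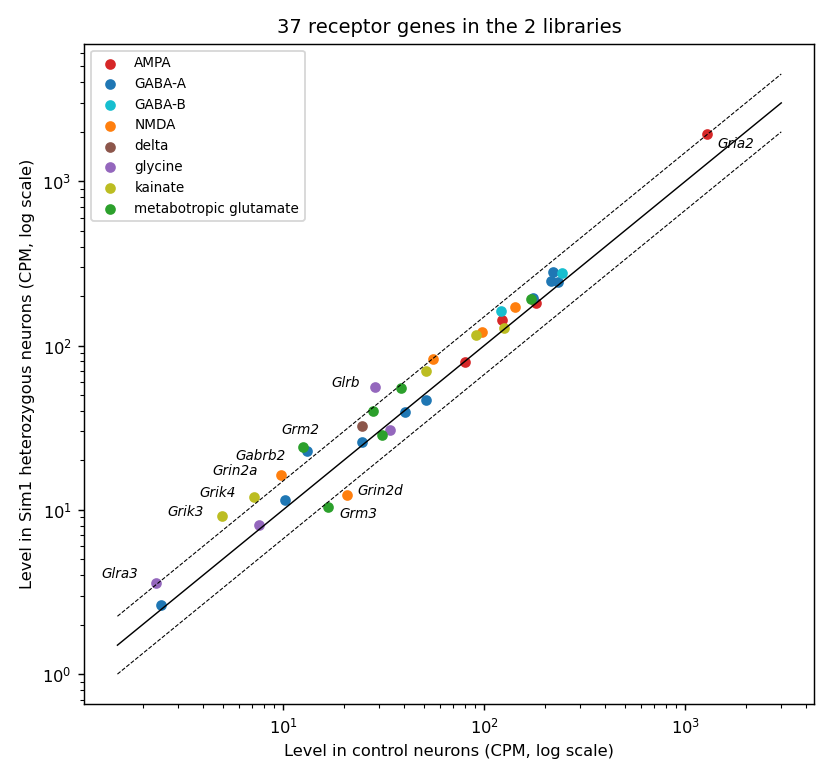
Level of 37 receptor genes in control (x axis) and Sim1 heterozygous neurons (y axis), both in CPM on log scales, coloured by family; the solid line marks equal levels and the dashed lines 1.5-fold. The 10 named genes lie past a dashed line, 8 above and 2 below, with Gria2 at the top right at 1282 and 1946 CPM.

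Gabbr1, Gabbr2 and Grin3a were higher in the Sim1 heterozygous library in each of 7 neuron groups (the gated groups without Oxt, and the ungated), though most of their intervals within a group hold 0. For Gabbr1 the levels in control and Sim1 heterozygous were 196 and 244 CPM in Foxb1 neurons, a log2 ratio of 0.31 [0.11 to 0.53], and 263 and 298 CPM in ungated neurons, 0.18 [0.04 to 0.32]. For Grin3a they were 57.2 and 68.5 CPM in Foxb1 neurons, 0.25 [-0.14 to 0.67], and 104 and 155 CPM in ungated neurons, 0.58 [0.37 to 0.78]. For Gabbr2 they were 136 and 181 CPM in Foxb1 neurons, 0.41 [0.16 to 0.66], and 125 and 152 CPM in ungated neurons, 0.28 [0.08 to 0.48]. In all, 5 of the 33 receptor genes with UMIs in all 7 groups were higher throughout, where 2.94% of 10427 genes were, and 0 were lower throughout, where 4.19% were. In at least 6 of the 7 groups 13 of the 33 were higher, against 12.6% of genes. These backgrounds are of genes of every type, and no share was taken over protein-coding genes alone.

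Gria2 was higher in 6 of the 7 groups. In Foxb1 neurons it was 2064 and 2671 CPM (0.37 [0.31 to 0.44]) and in ungated neurons 1133 and 1530 CPM (0.43 [0.37 to 0.50]). In Tcf7l2 neurons it was 976 and 956 CPM and in Neurod6 neurons 934 and 937 CPM, with no difference detectable at that depth. The ratio within each group was thus smaller than the 0.60 over all neurons except in Avp neurons (0.61 [0.004 to 1.14]). Grin2d was lower in 6 of the 7 groups, and Gria1 in 5.

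**Figure D4:**
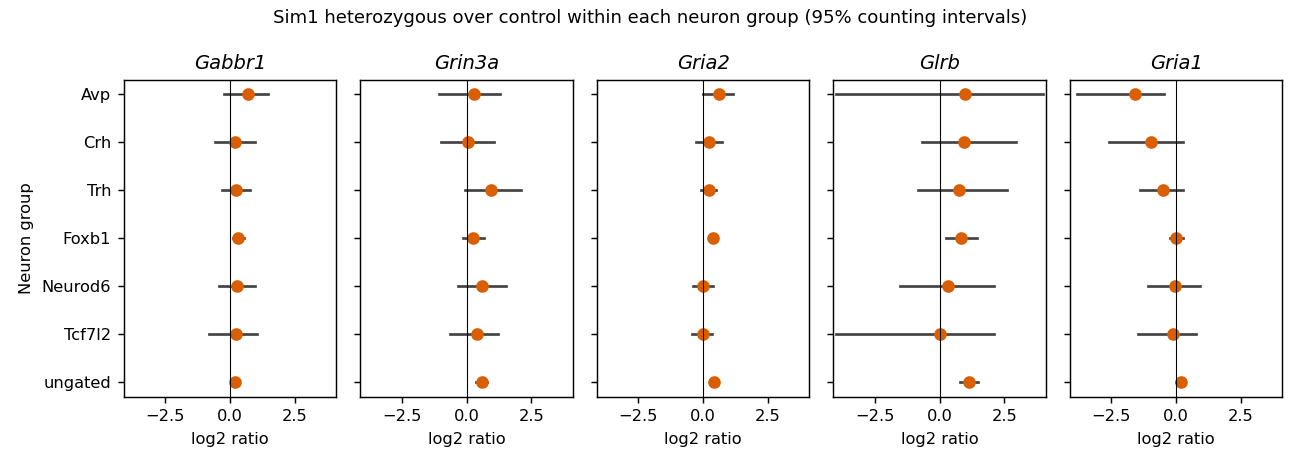
Log2 ratio of Sim1 heterozygous over control (x axis, 1 UMI added) within each neuron group (y axis) for 5 receptor genes, with 95% counting intervals cut at -4 and 4. Gabbr1 and Grin3a lie to the right of 0 in every row drawn, and the lowest value of Gria1 is that of Avp neurons, -1.60.

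Gria2 and Glrb, both higher in the Sim1 heterozygous library, are neighbours on chromosome 3 (mm10, both on the minus strand): Gria2 from 80681450 to 80802835 and Glrb from 80843599 to 80913660, 40.8 kilobases apart. The GABA-A cluster on chromosome 5 (Gabrg1, Gabra2, Gabra4 and Gabrb1) had 0.08, 0.20, -0.03 and 0.15, and Gabrg3 and Gabra5, neighbours on chromosome 7, had -0.14 and 0.07.

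The promoters of Gria2 and Glrb are printed because these neighbours were higher together, that of Grm2 because it was higher in Foxb1 neurons and in the Sim1 heterozygous library, and that of Grin1 because it holds the SIM1 core at 2 places. Each is 250 bases before the start site, from RefSeq (GRCm38.p6), on the minus strand of chr3:80802836-80803085, chr3:80913661-80913910, chr9:106656110-106656359 and chr2:25319188-25319437. In the first 3, capitals mark a match on either strand to the core of RE1, the site of the repressor REST that keeps neuronal genes silent elsewhere (AGCACC, then any 2 bases, then GGACAG). Gria2 has the whole core, Grm2 its left and right ends apart and Glrb the right end only. In Grin1 capitals mark CACGTG, which holds ACGTG, the core bound by SIM1 with its partner ARNT. Grin1 also holds the right end of RE1, at bases -126 to -121 and left in lower case.
Gria2: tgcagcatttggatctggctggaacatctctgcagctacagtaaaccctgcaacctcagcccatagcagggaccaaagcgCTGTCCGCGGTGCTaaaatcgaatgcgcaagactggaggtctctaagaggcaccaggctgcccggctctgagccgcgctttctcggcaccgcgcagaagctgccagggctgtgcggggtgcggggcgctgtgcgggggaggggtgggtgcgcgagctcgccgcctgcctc
Glrb: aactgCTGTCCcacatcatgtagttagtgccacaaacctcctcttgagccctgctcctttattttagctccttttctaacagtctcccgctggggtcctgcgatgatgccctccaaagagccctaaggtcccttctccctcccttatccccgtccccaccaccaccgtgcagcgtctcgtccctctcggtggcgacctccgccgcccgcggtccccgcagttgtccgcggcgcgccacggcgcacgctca
Grm2: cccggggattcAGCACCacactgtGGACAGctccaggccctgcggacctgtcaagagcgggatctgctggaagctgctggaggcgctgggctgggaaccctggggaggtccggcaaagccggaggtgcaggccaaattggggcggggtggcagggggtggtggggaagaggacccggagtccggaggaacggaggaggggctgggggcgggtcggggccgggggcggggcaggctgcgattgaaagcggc
Grin1: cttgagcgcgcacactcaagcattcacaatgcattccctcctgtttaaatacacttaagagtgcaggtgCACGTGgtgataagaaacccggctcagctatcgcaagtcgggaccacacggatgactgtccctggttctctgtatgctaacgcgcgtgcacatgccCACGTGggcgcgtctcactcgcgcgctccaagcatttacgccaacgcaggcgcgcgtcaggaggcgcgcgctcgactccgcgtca

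Promoters of 27 of the 42 genes were in the table, 34 in all, with 50 further bases after the start searched as well. The full RE1 core was in Gria2 only, at bases -170 to -157 from the start, and in 17 of 32851 promoters of this length (0.0517%). The ends alone, AGCACC and GGACAG, which the whole core contains, were in 16.2% and 22.2% of all promoters and in 5 and 14 of these 34. By gene, 18.1% and 24.7% of all genes and 5 and 13 of the 27 had them. In Grm2 they stood 7 bases apart, not 2. ACGTG was in 19.6% of all promoters and 7 of these 34, and by gene in 21.8% of all genes and in 6 of the 27: Gabrb1, Gabrb2, Gabre, Glra2, Grin1 and Grm8. Grin1 held it at 2 places, each as CACGTG, which reads the same on both strands. Grin1 itself was 55.5 and 82.6 CPM, a log2 ratio of 0.57 [0.37 to 0.78]. A match is a description of letters and shows no binding.

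Partner genes of these receptors were read beside them. Of 28 glutamate receptor partners, 4 were at least 1.5-fold higher and 1 lower in Sim1 heterozygous neurons, where 8.1% and 3.1% of protein-coding genes were. Higher were Neto1 and Neto2, auxiliary subunits of kainate receptors (32.9 and 68.9 CPM, 1.06 [0.82 to 1.32], and 81.6 and 133 CPM, 0.71 [0.54 to 0.87]), Shisa9, an AMPA receptor partner (89 and 167 CPM, 0.91 [0.75 to 1.06]) and the scaffold Dlg1 (15.8 and 29 CPM, 0.87 [0.50 to 1.25]). Shisa6 was lower, from 23 and 8 UMIs. The most abundant partner, Cacng4, an AMPA receptor partner, was 625 and 608 CPM, and Shank1, a scaffold, 203 and 227 CPM. Of 13 partners of inhibitory receptors, against the same 8.1% and 3.1%, Plcl1 was higher (0.68 [0.28 to 1.10]), and Kctd12 (-0.76 [-1.41 to -0.18]) and Kctd8 (-0.72 [-1.09 to -0.37]), both GABA-B auxiliary subunits, were lower. Gphn, the scaffold gephyrin, was 285 and 317 CPM.

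Whether GABA excites or inhibits a newborn neuron depends on chloride, which Slc12a5 (KCC2) pumps out and Slc12a2 (NKCC1) brings in. Slc12a5 was 147 CPM [138 to 157] in control and 239 CPM [226 to 252] in Sim1 heterozygous neurons, a log2 ratio of 0.70 [0.58 to 0.82]. Slc12a2 was 19.9 CPM [16.6 to 23.6] and 29 CPM [24.6 to 33.9], a ratio of 0.54 [0.20 to 0.90]. Slc12a5 was low in control Avp neurons, at 59.3 CPM [33.2 to 97.9] from 15 UMIs, and in control Oxt neurons, at 51.7 CPM [10.7 to 151] from 3. It was 92.6 CPM from 6 UMIs in Sim1 heterozygous Avp neurons. Foxb1 neurons had 167 and 244 CPM. Of the transporters that load transmitter, Slc17a6, that of glutamate, was 613 and 793 CPM, and Slc32a1, that of GABA and glycine, 8.53 and 6.21 CPM. Of 8 genes that make or load transmitter, again beside 8.1% and 3.1% of protein-coding genes, Gad2 (28.5 and 50.6 CPM, 0.82 [0.55 to 1.11]) and Slc6a9 (28 and 57 UMIs, 1.28 [0.63 to 2.01]) were higher, and Gad1 (24 and 12 UMIs, -0.66 [-1.85 to 0.34]) was lower with an interval that holds 0. Most Gad2 UMIs, 168 of 184 and 226 of 269, were in ungated neurons.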

How the data were processed

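The values are UMI counts by gene and barcode that the authors deposited, in a table per library and a merged table that holds the same values. The submitters' processing notes name mm10 as the build and, with no order or role, STAR 2.6.0b, Picard, bcl2fastq and Seurat 3. How reads were counted, with or without strand, is not given in the labels, so genes with a partner on the opposite strand at their 3′ end (Gabra5, Glra1, Grin1, Grin2d and Grm2 among the receptor genes) can share counts.

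Cells with at least 300 genes were kept. A neuron had at least 2 UMIs of 8 neuron markers and more of these than of 7 glial markers. Doublets were not called and must be taken as present. Counts were summed over cells in Python 3.11.15 with pandas 2.3.3, scipy 1.17.1, numpy 2.4.6 and matplotlib 3.10.9. A cell past both the Avp and the Oxt gate went to the gene with more UMIs. Poisson, conditional binomial and Clopper-Pearson intervals at 95% were tested on simulated counts. UMIs of 1 cell are not independent, so the intervals are too narrow. Where no UMI was seen, up to 3 are allowed for. Coordinates are from GENCODE M21 (23481 of 24905 symbols found). The receptor genes, partner lists and gates were chosen with earlier results of these data known. Genes named are those with the most UMIs in a family and those past 1.5-fold between libraries or 2-fold in a group in both. No test over samples was possible, and no p-value is given. The 14 alternatives changed the filters, gates, scaling, pseudocount and weights. Some of the receptor genes enter the sums and counts but are not reported here by name.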

Additional observations from a re-analysis of the deposited data

Results flagged for a closer look

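For 3 receptor genes, the ratio of Sim1 heterozygous over control pointed in opposite directions in 2 neuron groups, with both counting intervals off 0; with 1 library per genotype the difference between the groups was not tested. Gria1 had a log2 ratio of -1.60 in Avp neurons and 0.17 in ungated neurons. Grik1 had -1.62 in Crh neurons, against 0.59 in Foxb1 and 0.51 in ungated neurons. Grm5 had -1.33 in Crh neurons, against 0.43 in Foxb1 and 0.29 in ungated neurons. The negative values rest on 4, 5 and 6 UMIs in the Sim1 heterozygous library, and 7 groups and 42 genes were looked through. Crh neurons also differed in depth, with medians of 3516 UMIs a cell in control and 1873.5 in Sim1 heterozygous. Crh itself was 1811 and 3884 CPM in them. The 8 genes that mark neurons summed to 14219 and 9405 CPM in Crh neurons, against 14025 and 12224 CPM in all neurons. The part of these differences in the ratios of Crh neurons was not tested.

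Signal was also found outside the main measurement. Grin1os, annotated antisense to Grin1, had 22 UMIs in control and 14 in Sim1 heterozygous neurons. In glia-like cells the receptor genes together had 97 UMIs in control and 162 in Sim1 heterozygous, from 37 and 49 cells. GABA-B genes held 29.9% and 32.7% of these, against 7.98% and 7.49% in neurons, and Grm3 and Grm5 held 19 of 20 and 23 of 23 metabotropic UMIs.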

How the results depend on the processing

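No paired analysis was possible because each genotype is 1 library. The 62 results were recomputed under those of 14 alternatives that bear on them, 1 of which (equal weights without the Oxt group) was chosen after seeing the data. The counts of genes past 1.5-fold stayed between 8 and 11 higher and 2 and 3 lower, and the median between 0.20 and 0.31. The equal weights moved most values. With all gated groups and the ungated neurons weighted equally, the family log2 ratios were 0.15 (AMPA), 0.11 (NMDA), -0.074 (kainate), -0.027 (metabotropic), 0.37 (GABA-A) and 0.48 (GABA-B), and Gabrb2 had -0.55, Grin2a -0.25 and Glra3 -0.68. Without the Oxt group, which had 2 cells in the Sim1 heterozygous library, they were 0.21 (AMPA), 0.083 (kainate), 0.036 (metabotropic) and 0.32 (GABA-A), Gabrb2 had -0.11 and Glra3 -0.69. Scaling by the median of ratios, a shift of 0.05, gave 0.45 for AMPA and 0.20 for GABA-A, and took Gria2 to 0.55 and under 1.5-fold. Weighting cells equally gave 0.44 for NMDA and 0.36 for kainate. The lower gate gave 5 gene and group pairs at least 2-fold higher in both libraries, where the gate used gave 3. The difference between Foxb1 and Avp neurons in the Gria2 share, 36.2 percentage points in control and 23.3 in Sim1 heterozygous, ranged from 31.3 to 40.8 and from 20.5 to 25.7 under the 7 alternatives run for it. Depth limits the small groups: Sim1 heterozygous Avp neurons held 228 receptor UMIs and Tcf7l2 neurons 370.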
